A study of Mus musculus with 4 samples.

Results

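The genes of the cytosolic ribosome were followed in macrophages with and without the kinase PERK. They were taken by name: mouse symbols that begin with Rpl or Rps followed by a number, by P and a number, or by a final a. Kinases of the Rps6k family and entries marked as pseudogenes by -ps were left out. The rule found 84 genes among the 15114 Entrez-numbered genes listed in the 4 libraries, 51 with large-subunit names and 33 with small-subunit names. Another 11 genes that the RefSeq table names in this way, among them Rpl15, are listed in none of the 4 libraries. They are not analysed here. Of the 84 genes, 69 had a mean of at least 10% of the median member and are called the core below, 41 of the large and 28 of the small subunit. A further 14 lay far below the others, 9 with large-subunit and 5 with small-subunit names, and Rpl3 is described apart. The median member had a mean of 294.7 FPKM over the 4 libraries (fragment numbers scaled for gene length and for library size, a level per length), which put the dividing line at 29.5 FPKM. Rpl10a lay just above this line at a mean of 30.5 FPKM and Rpl7l1 just below it at 28.5 FPKM.

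The macrophages came from the bone marrow of C57BL/6 mice, grown for 7 days with 20 ng/mL M-CSF, the growth factor of macrophages, and then kept for 24 h with 20 ng/mL IL-4. The 2 libraries called wild type came from mice with both alleles of Eif2ak3, the gene of PERK, flanked by loxP sites (Eif2ak3 fl/fl). The 2 libraries called knockout came from mice with the same floxed alleles and LysMcre, a Cre recombinase expressed from the lysozyme M gene of myeloid cells. Both groups thus carry the floxed gene, and the wild-type libraries lack Cre. The labels do not say whether the 2 libraries of a genotype came from separate mice or cultures, so p-values measure the spread between these libraries, which may be technical.

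Each cytosolic ribosome joins a small subunit, which reads the mRNA, to a large subunit, which forms the peptide bond and passes the chain out through a tunnel. Its proteins are made in near-equal numbers, 1 copy of most per ribosome, and each is generally encoded by a single active gene accompanied by processed pseudogenes. Many of these mRNAs begin with a C followed by a run of pyrimidines, the 5′ terminal oligopyrimidine tract or TOP, through which mTORC1 and the RNA-binding protein LARP1 control their translation. PERK phosphorylates the initiation factor eIF2α when unfolded proteins accumulate in the endoplasmic reticulum, which lowers translation initiation. Transcript levels do not show how much ribosomal protein was made.

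The TOP shows in the sequence at the annotated start in 11 of the 52 core genes with promoter sequence. The windows below are shown because the tract is the sequence feature for which these mRNAs are known. Each runs 5′ to 3′ on the strand of the gene, from 15 bases before the start to the first 15 transcribed bases, and is taken from RefSeq on GRCm38.p6. Capitals mark the unbroken pyrimidine run that begins with C at the annotated start, and a window without capitals has none there.
Rps6, chr4:86857353-86857382, minus strand: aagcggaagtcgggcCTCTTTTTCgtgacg
Rps18, chr17:33955651-33955680, minus strand: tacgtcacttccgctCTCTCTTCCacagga
Rps10, chr17:27635230-27635259, minus strand: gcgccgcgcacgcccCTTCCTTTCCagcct
Rpl35, chr2:39005117-39005146, minus strand: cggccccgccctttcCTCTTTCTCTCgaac
Rpl28, chr7:4792950-4792979, plus strand: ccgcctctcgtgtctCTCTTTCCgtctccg
Rplp2, chr7:141447636-141447665, plus strand: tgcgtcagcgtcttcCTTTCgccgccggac
Rps15a, chr7:118116133-118116162, minus strand: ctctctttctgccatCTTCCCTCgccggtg
Rps26, chr10:128626492-128626521, minus strand: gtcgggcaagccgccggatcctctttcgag
Rps2, chr17:24720048-24720077, plus strand: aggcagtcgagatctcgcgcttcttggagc
The first 6 are core members that carry the tract, Rps15a is a member far below the others that carries it, and Rps26 and Rps2 lack it at the annotated base.

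Promoter sequence was given for 64 members, 52 of them in the core. A C followed by at least 4 pyrimidines exactly at an annotated start was found in 11 of these 52 genes, 21.2%, against 3.01% of all 27025 genes with a promoter entry. Allowing the same letters anywhere in the 30-base window on the strand of the gene gave 34 of 52 core genes, 65.4%, against 40.3% of all genes. Rps26 is an example of the difference, since a pyrimidine run stands a few bases inside its annotated start. The letters CCGGAAG or, on the other strand, CTTCCGG, the core that ETS transcription factors recognise, occurred in the 300-base promoters of 23 of 52 core genes, 44.2%, against 9.93% of all genes. The YY1 core AAGATGGC, or GCCATCTT on the other strand, occurred in 4 of 52, 7.69%, against 3.19% of all genes. These letters can overlap, since the ETS core ends in the AAG with which the YY1 core begins. A match is a description of the sequence and not evidence of binding.

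The libraries themselves differed in ways that touch every comparison. Wild-type replicates 1 and 2 listed 48775 and 48335 features, and knockout replicates 1 and 2 listed 53411 and 80375. Entrez-numbered genes held 58.9% and 57.6% of the summed FPKM in wild type and 54.8% and 41.1% in knockout. The median tested gene had a log2 change, knockout minus wild type on the log2(FPKM + 1) scale, of -0.14 as deposited and -0.0042 after median-ratio scaling, in which each library is divided by its median ratio to the mean library over genes listed in all 4. Changes are therefore given relative to the median tested gene, unless called as deposited, while p-values come from the values as deposited, which carry that shift. Pairs of values are given in the order of the replicate numbers. Eif2ak3 had 10.9 and 8.88 FPKM in wild type against 6.55 and 4.88 FPKM in knockout, lower in both knockout libraries but not absent. All 8 macrophage markers examined were listed, with sums of 1519, 2278, 1919 and 1625 FPKM in wild-type replicates 1 and 2 and knockout replicates 1 and 2. Summed markers of T cells, B cells, neutrophils, dendritic cells, fibroblasts and erythroid cells each stayed between 0 and 3.11 FPKM, and the 3 mast cell markers were not listed. In these bulk libraries, fewer cells of a type and less RNA per cell cannot be told apart.

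Rpl3 was listed in wild type and missing from both knockout tables. It encodes a protein of the large subunit that reaches close to the site of peptide bond formation. Rpl3 (Entrez 27367, chromosome 15, 80077781 to 80083406 on GRCm38.p6) had 167 and 180.2 FPKM in wild type and had no entry in either knockout table. In the fit over 9501 genes its missing knockout entries were set to 0, and it passed the filter on low values through the wild-type libraries. Its limma adjusted p of 4.5e-06, the only one of a member under the threshold of 0.05, rests on those entries and describes the listing. Whether expression changed cannot be told from it. In all, 2 genes, 0.0211% of those tested, were lower at an adjusted p under 0.05 and 0 genes, 0.0%, were higher, while 3.52% were lower and 0.705% higher at an unadjusted p under 0.05. The other gene past the threshold was Smdt1, also on chromosome 15, a regulator of the mitochondrial calcium uniporter, with 49.0 and 55.9 FPKM in wild type and no listing in knockout.

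No fold is given for Rpl3, because the files hold no counts and a listing at 0 can be a failed estimate. Rpl3 and Smdt1 were the only Entrez-numbered genes with at least 20 FPKM in both wild-type libraries and 0 in both knockout libraries, and 0 genes showed the reverse. Syngr1, a synaptic vesicle protein gene near Rpl3 on chromosome 15, stood at 41.15 and 56.45 FPKM in wild type and, in knockout, at 40.95 and 36.63 FPKM, so that wild-type replicate 1 and knockout replicate 1 nearly met. Among the 76534 features without an Entrez number, 0 had at least 20 FPKM in both knockout libraries and 0 in both wild-type libraries. In 15 of these features both knockout libraries exceeded both wild-type libraries by at least 100 FPKM, and the files do not pair them with genes. Whether fragments of Rpl3 were assigned elsewhere in the knockout libraries was not tested. The mouse annotation holds 7 near-identical copies of Rpl3 coding sequence, meaning at least 95% identity over at least 80% of its length.

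**Figure D1:**
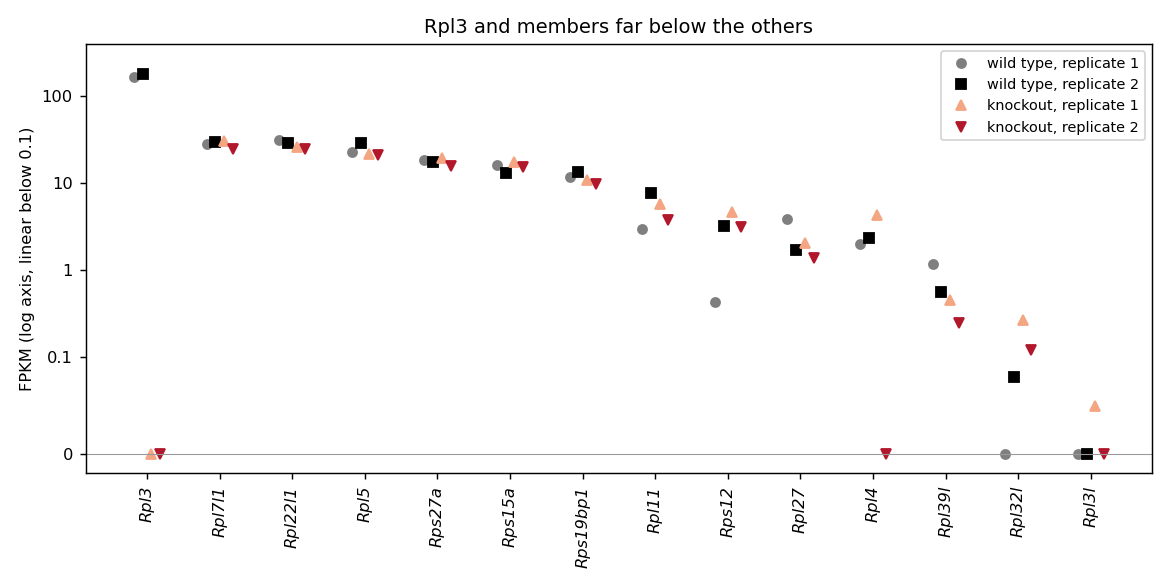
Levels in FPKM (log axis, linear below 0.1) of Rpl3 and of 13 members far below the others, 1 point per library, with wild type in grey and black and knockout in orange and red. Rpl3 stands at 167 and 180.2 FPKM in wild type and at 0 in both knockout libraries, while the wild-type and knockout points of most other members overlap.

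The remaining core lay slightly below the median gene in knockout macrophages in both subunits alike, and none of its 69 genes passed the threshold. Relative to the median gene, the 41 large-subunit genes had a median log2 change of -0.08 (quartiles -0.14 and -0.04, range -0.30 to 0.21). The 28 small-subunit genes had a median of -0.08 as well (quartiles -0.15 and -0.02, range -0.41 to 0.07). Below the median gene lay 37 of the large-subunit and 25 of the small-subunit genes, against 4750 of all 9501 tested genes by construction. The 1499 other genes at least as abundant as the lowest core member had a median of -0.03, and 930 of them lay below the median gene. At an unadjusted limma p under 0.05 there was 1 core gene, Rps26, which was lower, 1.45% beside 3.52% of all tested genes. After median-ratio scaling there were 0 core genes, beside 121 lower and 178 higher of all 9501 tested genes.

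The libraries of many core genes did not overlap as deposited, and most of that separation went with the scaling of the libraries. As deposited, both knockout values lay under both wild-type values in 45 of 69 core genes, 65.2%, against 35.6% of all tested genes and 40.1% of the other abundant genes. By subunit these were 25 of 41 large-subunit genes, 61.0%, and 20 of 28 small-subunit genes, 71.4%. Both knockout values lay above both wild-type values in 0 core genes, against 4.14% of all tested genes. After median-ratio scaling 15 of 69 core genes, 21.7%, were lower in both knockout libraries, 10 large-subunit and 5 small-subunit genes, against 14.1% of all tested genes and 14.5% of the other abundant genes. In the higher direction there were 0 core genes, against 15.0% of all tested genes and 11.1% of the other abundant genes.

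Beside the same counts over all tested genes, wild-type replicate 2 made much of the difference. Without it, 45 of 69 core genes, 65.2%, were lower in both knockout libraries as deposited, beside 53.9% of all tested genes. After median-ratio scaling without it there were 19 core genes, 27.5%, beside 32.4% of all tested genes. The medians relative to the median gene were then -0.02 for the large and -0.01 for the small subunit. Below the median gene lay 46 core genes and above it 23, against 62 and 7 with all 4 libraries. Without knockout replicate 2, the library with the most features, the counts were 46 as deposited, 66.7%, and 31 after scaling, 44.9%, beside 44.0% and 32.0% of all tested genes. The medians were then -0.08 for the large and -0.09 for the small subunit. Without wild-type replicate 1 there were 65 core genes as deposited, 94.2%, and 50 after scaling, 72.5%, beside 54.6% and 30.4% of all tested genes. Medians were -0.16 for the large and -0.17 for the small subunit. Without knockout replicate 1 there were 64, 92.8%, and 40, 58.0%, beside 69.7% and 33.7%, and the medians were -0.14 and -0.11. Fewer libraries overlap less by construction, so each of these counts is to be read against its own background.

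**Figure D2:**
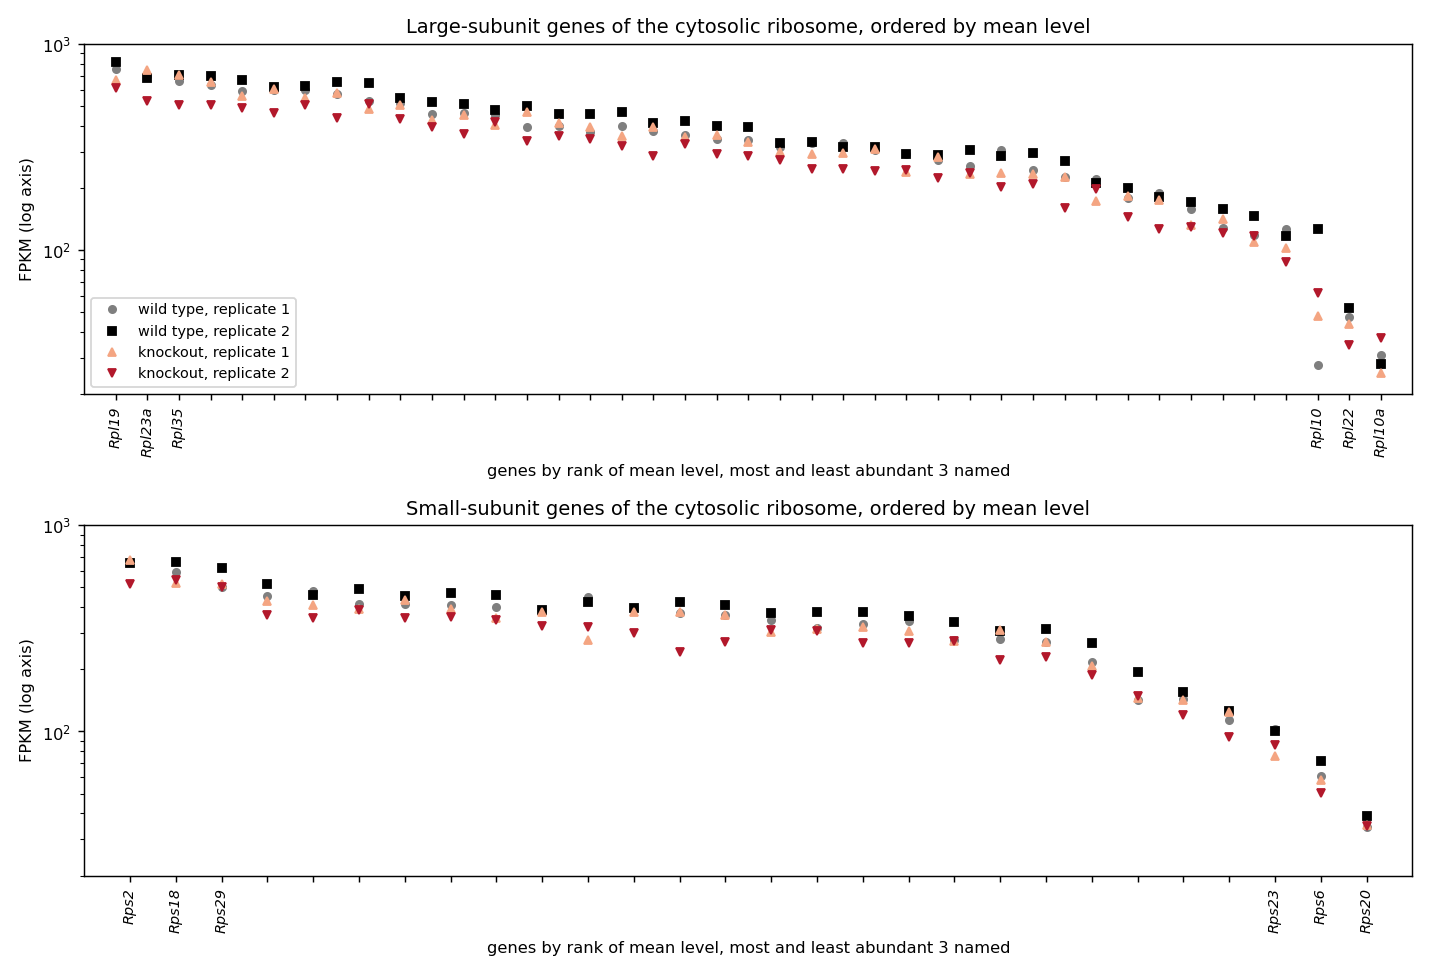
Levels in FPKM (log axis) of the 41 large-subunit genes (top) and the 28 small-subunit genes (bottom) of the core, ordered by mean level, 1 point per library, with the 3 most and 3 least abundant genes of each subunit named. Mean levels run from 715 FPKM (Rpl19) to 30.5 FPKM (Rpl10a). Black squares (wild-type replicate 2) are on top in 81.2% of core genes, beside 49.6% of the other abundant genes and 38.0% of all tested genes. Red triangles (knockout replicate 2) are at the bottom in 76.8%, beside 76.9% and 60.6%.

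The summed level of the core made the same point in single numbers. Large-subunit genes summed to 14633 and 16114 FPKM in wild type and to 14212 and 12064 FPKM in knockout. Small-subunit genes summed to 9308 and 10251 FPKM in wild type and to 8818 and 7816 FPKM in knockout. Both sums, taken as deposited, were highest in wild-type replicate 2 and lowest in knockout replicate 2, and the 2 genotypes did not overlap. The total over all Entrez-numbered genes followed the same order. It reached 270796 and 283071 for the wild-type pair, against 267217 and 227947 for the knockout pair. Non-overlap of the summed FPKM was thus not particular to the core. As a share of the FPKM of Entrez-numbered genes, the core held 8.84% and 9.31% in wild type and 8.62% and 8.72% in knockout. The genotypes did not overlap in this share either, but wild-type replicate 1 was closer to both knockout libraries than to wild-type replicate 2.

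The balance between the subunits differed by less than the spread between libraries. The sum of the large-subunit genes divided by that of the small-subunit genes was 1.57 in both wild-type libraries, 1.61 in knockout replicate 1 and 1.54 in knockout replicate 2. The knockout values lay on either side of the wild-type value. The ratio of the subunit medians was 0.954 and 1.03 in wild type and 1.06 and 0.993 in knockout, and these overlapped.

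**Figure D3:**
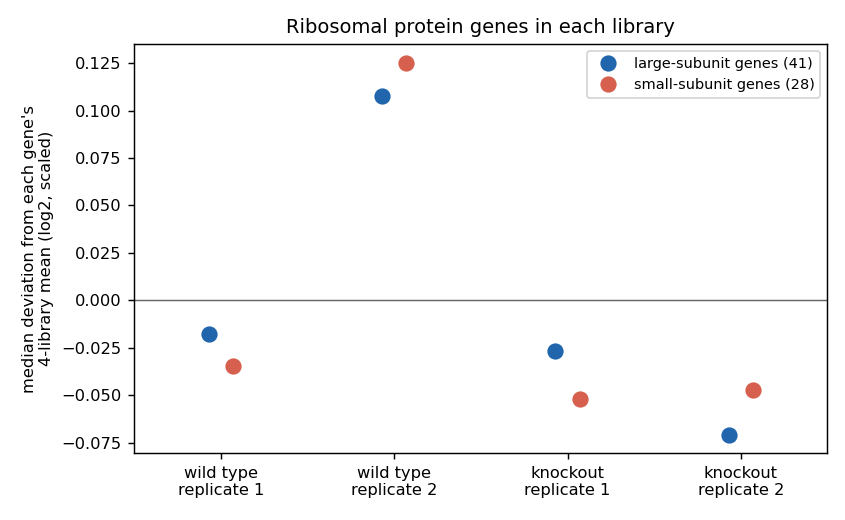
Median deviation of the core genes from each gene's mean over the 4 libraries (log2 scale, after median-ratio scaling), for the large subunit (blue) and the small subunit (red) in each library. Wild-type replicate 2 stands at 0.11 and 0.13, and the other 3 libraries lie between -0.07 and -0.02.

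Wild-type replicate 2 stood apart from the other 3 libraries in both subunits. After median-ratio scaling, the median core gene deviated from its mean over the libraries by -0.02 in wild-type replicate 1 and by 0.12 in wild-type replicate 2. The deviations were -0.04 in knockout replicate 1 and -0.06 in knockout replicate 2. Of the 69 core genes, 44 (63.8%) had their highest scaled value in wild-type replicate 2, against 31.5% of the other abundant genes and 22.9% of all tested genes. None of the 69 had its lowest value there, as deposited or scaled. These shares were 2.60% and 14.1% for the other abundant genes, and 9.25% and 22.9% for all tested genes. Wild-type replicate 1 was thus closer to the knockout libraries than to its own replicate in the median core gene.

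Levels per length ranged widely within the core although the proteins are used in near-equal numbers. The most abundant large-subunit genes were Rpl19, Rpl23a and Rpl35, whose proteins sit around the exit of the peptide tunnel. Rpl19 was at 757 and 818 FPKM in the wild-type pair and at 671 and 613 FPKM in the knockout pair. Rpl23a had 700.4 and 682 FPKM in wild type against 752 and 526 FPKM in knockout, so that the highest and the lowest of its 4 values were both from knockout libraries. In the small subunit Rps2, Rps18 and Rps29 were the most abundant. Rps2 stood at 668 and 656 FPKM in wild type and, in knockout, at 680.4 and 517 FPKM, again with overlap. Rps18 was at 593 and 663 FPKM in the wild-type pair and at 526 and 546 FPKM in the knockout pair, without overlap as deposited. Rps29 had 502 and 622 FPKM in wild type against 521 and 505 FPKM in knockout, and wild-type replicate 1 was the lowest of the 4.

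At the lower end of the core stood Rpl10a, Rpl22 and Rpl10 in the large subunit and Rps20, Rps6 and Rps23 in the small subunit. Rpl10a had 30.9 and 28.1 FPKM in wild type against 25.5 and 37.6 FPKM in knockout, with the knockout libraries at both ends. Rps20, a protein of the head of the small subunit, stood at 34.4 and 39.1 FPKM in wild type and, in knockout, at 35.0 and 34.7 FPKM. Rpl10, which joins the large subunit in a late step of its maturation, was the least even core gene. It had 27.8 and 126 FPKM in wild type against 47.8 and 61.8 FPKM in knockout. The wild-type libraries thus differed 4.54-fold in Rpl10, while the next highest difference among core genes was 1.36-fold and the median 1.11-fold. Between the knockout libraries the median difference was 1.17-fold. The change of Rpl10 between the genotypes was within the spread of its own libraries (log2 change 0.01, SE 0.62).

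Across the core, the mean level per length bore little relation to gene properties. Spearman's rho over the 69 genes was 0.0021 between mean FPKM and coding length and 0.20 between mean FPKM and the number of near-identical copies. Between the log2 change and mean FPKM rho was 0.07, and between the log2 change and the number of copies 0.02. The genes share the same 4 libraries, so these values are descriptions and carry no test.

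The P stalk of the large subunit, which recruits the elongation factors, was measured through 4 genes, and all 4 lay below the median gene without passing the threshold. Its scaffold Rplp0 was at 457 and 524 FPKM in the wild-type pair and at 429 and 397 FPKM in the knockout pair (log2 change -0.10, SE 0.21). The acidic protein gene Rplp1 had 598 and 626 FPKM in wild type against 548 and 505 FPKM in knockout. Rplp2, its partner in the stalk, stood at 293 and 292 FPKM in wild type and, in knockout, at 240.1 and 246 FPKM, with each pair close together. Rpl12, at the base of the stalk, overlapped with 633 and 698 FPKM in wild type against 657 and 504 FPKM in knockout. The stalk genes had a median of -0.09, beside -0.08 for all core genes.

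The peptide exit tunnel list held 8 large-subunit genes, 7 of which lay below the median gene. In 2 of the 8, Rpl19 and Rpl31, both knockout libraries were below both wild-type libraries, as deposited and after scaling, beside 35.6% and 14.1% of all tested genes. Rpl31 was at 329 and 316 FPKM in the wild-type pair and at 295 and 248 FPKM in the knockout pair (log2 change -0.11, SE 0.20). Rpl26 had 573 and 653 FPKM in wild type against 579 and 435 FPKM in knockout. Rpl17 and Rpl39, which reach into the tunnel, overlapped between the genotypes, with log2 changes of -0.02 (SE 0.25) and -0.01 (SE 0.21). Rpl35, with a TOP at its start, stood at 662 and 705 FPKM in wild type and, in knockout, at 704 and 506 FPKM. Knockout replicate 1 thus lay within the wild-type values in Rpl26 and Rpl35 and above them in Rpl23a, while knockout replicate 2 lay below them in all 3.

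Along the mRNA path of the small subunit 7 genes were examined, and 6 of them were lower in both knockout libraries as deposited, but 1 of them, Rps26, after scaling. These shares, 85.7% and 14.3%, stand beside 35.6% and 14.1% of all tested genes. Rps2, Rps3 and Rps9 line the channel by which mRNA enters. Rps3 was at 143 and 155 FPKM in the wild-type pair and at 142 and 119.6 FPKM in the knockout pair. Rps9 had 396 and 398 FPKM in wild type against 379 and 300.3 FPKM in knockout. In both genes knockout replicate 1 lay close under the wild-type values and knockout replicate 2 further down. Rps23, in the decoding centre, stood at 103 and 101 FPKM in wild type and, in knockout, at 75.7 and 85.8 FPKM (log2 change -0.20, SE 0.16). Rps15, in the head, was at 403 and 458 FPKM in the wild-type pair and at 355 and 349 FPKM in the knockout pair. Rps28, near the site where mRNA leaves, had 409 and 471 FPKM in wild type against 394 and 360.0 FPKM in knockout.

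Rps26, which contacts the mRNA where it leaves the small subunit, had the smallest p among the core genes. It is on chromosome 10 at 128624529 to 128626506 (Entrez 27370). Rps26 measured 452 and 424 FPKM in wild type, 438 ± 19.3 FPKM, and 279 and 322 FPKM in knockout, 301 ± 30.6 FPKM (SD, n = 2 each). Its log2 change was -0.41 with a standard error of 0.20, and the genotypes did not overlap as deposited or scaled. It did not pass over all genes (limma adjusted p = 0.776, unadjusted p = 0.033, and 0.0752 unadjusted after scaling).

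Behind Rps26, the core genes with the smallest p in the lower direction were Rpl8, Rpl21, Rps23 and Rpl22. Rpl8, at the interface of the subunits near the peptidyl transferase centre, stood at 305 and 288 FPKM in wild type and, in knockout, at 237 and 201 FPKM (log2 change -0.30, SE 0.19, limma unadjusted p = 0.0615). It has 0 near-identical copies in the annotation. Rpl21 was at 127 and 117 FPKM in the wild-type pair and at 103 and 87.5 FPKM in the knockout pair (log2 change -0.22, SE 0.17). It has 57 near-identical copies, the most of any member, so that its level depends on how fragments shared with them were assigned. Rpl22 had 47.5 and 52.6 FPKM in wild type against 43.7 and 34.7 FPKM in knockout. In Rpl8, Rpl21 and Rpl22 the genotypes did not overlap on either scale, and in Rps23 they overlapped after scaling but not as deposited. The limma adjusted p was 0.776 for each of these genes.

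Among members above the median gene, the smallest p-values of the fit as deposited were those of Rps12, Rps15a, Rps24, Rpl6 and Rpl7l1, and none passed. As deposited Rps24, Rpl6 and Rpl7l1 were lower in knockout, so their p is not one for a higher level. After median-ratio scaling the smallest unadjusted limma p-values of higher members were 0.0719 for Rps15a, 0.0799 for Rps12, 0.325 for Rps27a and 0.418 for Rpl10a. Of the 5 genes, Rps24 and Rpl6 are core genes whose log2 change was at the median gene. Rps24 stood at 388 and 389 FPKM in wild type and, in knockout, at 382 and 326 FPKM, which is lower as deposited and 0.0025 relative to the median gene. Rpl6 was at 128 and 159 FPKM in the wild-type pair and at 141 and 120.5 FPKM in the knockout pair. Rpl7l1, of the members far below the others, had 28.7 and 30.2 FPKM in wild type against 30.45 and 24.8 FPKM in knockout. The sign of the change turned under some alternatives in each of these 3 genes.

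Members that signalling pathways are known to act on had changes within 1 standard error of the median gene. Rps6, the substrate of S6 kinase, whose phosphorylation is a standard readout of mTORC1 activity, had 60.9 and 72.2 FPKM in wild type against 58.3 and 50.4 FPKM in knockout (log2 change -0.15, SE 0.17). The genotypes did not overlap. Rpl13a, which in human myeloid cells leaves the ribosome after interferon gamma and silences inflammatory mRNAs, stood at 375 and 456 FPKM in wild type and, in knockout, at 397 and 346 FPKM, with overlap.

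The 11 core genes with a TOP at the annotated start had a median log2 change of -0.10, and the 41 with a promoter entry but none there had -0.08. With the ETS core in the promoter the median was -0.10 over 23 genes, and without it -0.08 over 29 genes. The differences between these medians were not tested.

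The 14 members far below the others held several proteins that each ribosome needs, at levels at or under 28.5 FPKM in the mean. Rpl4, which lines the peptide tunnel, measured 2.01 and 2.34 FPKM in wild type, 4.29 FPKM in knockout replicate 1, and was not listed in knockout replicate 2. Rpl5 and Rpl11 carry the smallest ribosomal RNA into the large subunit and can bind the p53 regulator Mdm2. Rpl5 was at 23.1 and 28.9 FPKM in the wild-type pair and at 21.4 and 21.1 FPKM in the knockout pair. Rpl11 had 3.01 and 7.83 FPKM in wild type against 5.72 and 3.77 FPKM in knockout, with the wild-type libraries at both ends. Rpl27 stood at 3.92 and 1.73 FPKM in wild type and, in knockout, at 2.08 and 1.38 FPKM. Near-identical copies in the annotation number 1 for Rpl4, 6 for Rpl11, 7 for Rpl27 and 22 for Rps12. How fragments shared with copies were assigned is not given in the sources used here, so these levels may not be the expression of the genes, which was not tested.

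Small-subunit genes in this group included Rps12, Rps15a and Rps27a. Rps12, a protein of the head of the small subunit (Entrez 20042, chromosome 10, 23785183 to 23787383), was at 0.43 and 3.19 FPKM in the wild-type pair and at 4.71 and 3.17 FPKM in the knockout pair. Wild-type replicate 1 was low, and the other wild-type library overlapped with the knockout libraries. Its log2 change was 1.14 with a standard error of 0.47 (limma adjusted p = 0.776), and it passed when wild-type replicate 2 was left out (limma adjusted p = 0.027, log2 change 1.90), which leaves the low library as the lone wild type. Rps15a, whose TOP is shown above, had 16.3 and 13.2 FPKM in wild type against 17.5 and 15.5 FPKM in knockout. Rps27a, made as a fusion with ubiquitin, stood at 18.7 and 17.6 FPKM in wild type and, in knockout, at 19.7 and 15.9 FPKM.

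The name rule also took Rps19bp1, which binds Rps19 and is not itself a ribosomal protein. It had 11.7 and 13.5 FPKM in wild type against 10.8 and 9.91 FPKM in knockout. Rps19 itself, a core gene, stood at 319 and 381 FPKM in wild type and, in knockout, at 314 and 308 FPKM. Of the 14 members far below the others, 11 passed the filter of a mean of 1 FPKM. Of those 11, 5 lay below and 6 above the median gene. Both knockout libraries were below both wild-type libraries in 3 of them and above in 0 as deposited, and below in 1 and above in 3 after scaling. As deposited these are 27.3% and 0.0%, beside 35.6% and 4.14% of all tested genes, and after scaling 9.09% and 27.3%, beside 14.1% and 15.0%.

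Paralogs of ribosomal proteins were measured beside their partners. Rpl22l1, which can replace Rpl22, was at 31.5 and 29.3 FPKM in the wild-type pair and at 26.0 and 24.7 FPKM in the knockout pair, and the ratio of Rpl22 to Rpl22l1 was 1.51 and 1.80 in wild type and 1.68 and 1.41 in knockout. The ratio of Rpl36a to Rpl36al was 1.45 and 1.60 in wild type and 1.63 and 1.77 in knockout, higher in both knockout libraries. Rpl36a has 5 and Rpl36al 2 near-identical copies, so this ratio may depend on how shared fragments were assigned. Rps27 exceeded Rps27l 3.66-fold and 3.92-fold in wild type and 3.17-fold and 4.12-fold in knockout. Rpl7 exceeded Rpl7l1, a relative that acts in ribosome assembly in human cells, 13.9-fold and 15.5-fold in wild type and 11.7-fold and 12.9-fold in knockout. In the pair of Rpl22 and in that of Rps27 the genotypes overlapped, and in the pairs of Rpl36a and Rpl7 they did not. The ratio of Rpl39 to Rpl39l did not overlap either, but Rpl39l was near the floor. How often the ratios of other gene pairs separate in this way was not computed.

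Paralogs known from other tissues were near the floor of the tables. Rpl39l, known from the testis, had 1.17 and 0.56 FPKM in wild type against 0.45 and 0.25 FPKM in knockout, beside 401 to 456 FPKM of Rpl39 in wild type. Rpl3l, known from striated muscle as the partner of Rpl3, was listed in knockout replicate 1 alone, at 0.05 FPKM. The knockout libraries thus held no level of Rpl3l near that of Rpl3 in wild type. Rpl32l measured 0.08 FPKM in wild-type replicate 2, 0.27 and 0.12 FPKM in knockout, and was not listed in wild-type replicate 1. The paralogs Rpl10l, Rps4l and Rps27rt are listed in none of the 4 libraries and are not analysed here.

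Near-identical copies limit how far single members can be read. In the GENCODE vM21 annotation 62 of the 69 core genes have at least 1 such copy, with a median of 5. The 7 core genes without a copy, among them Rpl8, Rpl41, Rps3 and Rps19, had a median log2 change of -0.12, and all 7 lay below the median gene. The 3 large-subunit genes among them had a median of -0.18 and the 4 small-subunit genes -0.04. As deposited 6 of the 7 were lower in both knockout libraries, and after scaling 3 were, all of the large subunit, which is 85.7% and 42.9% of 7 genes beside 35.6% and 14.1% of all tested genes. Rpl41, the smallest protein of the ribosome, was at 588 and 665 FPKM in the wild-type pair and at 559 and 487 FPKM in the knockout pair.

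Ribosomal proteins that the name rule misses were also listed. Fau, whose product is a small-subunit protein fused to a ubiquitin-like domain, had 79.5 and 80.04 FPKM in wild type against 65.9 and 55.2 FPKM in knockout (log2 change -0.26, SE 0.17, limma unadjusted p = 0.0501). Rack1, a scaffold on the small subunit, was at 30.2 and 26.4 FPKM in the wild-type pair and at 20.6 and 30.0 FPKM in the knockout pair, with overlap and a log2 change of -0.04.

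Genes that share the TOP or act with the ribosome were read beside the members. Of 13 other genes whose mRNAs are known to carry a TOP, 12 were tested, all 12 below the median gene, and their median was -0.11. Both knockout libraries were lower in 6 of the 12 as deposited and in 3 after scaling, beside 35.6% and 14.1% of all tested genes. Tpt1, which encodes the translationally controlled tumour protein, had 535 and 517 FPKM in wild type against 367 and 413 FPKM in knockout (log2 change -0.29, SE 0.21, limma adjusted p = 0.776). Eif3l and Eif4b, which encode initiation factors, had log2 changes of -0.16 each (SE 0.17 each). The 9 genes of elongation and termination lay below the median gene as well, with a median of -0.07, and 5 of them, 55.6%, were lower in both knockout libraries as deposited and 2, 22.2%, after scaling, beside the same 35.6% and 14.1%. Abce1, which splits ribosomes after termination, stood at 38.0 and 41.6 FPKM in wild type and, in knockout, at 38.7 and 28.1 FPKM. Eef2, the translocation factor, was at 515 and 519 FPKM in the wild-type pair and at 465 and 391 FPKM in the knockout pair. None of these genes had an unadjusted limma p under 0.05, beside 3.52% of all tested genes lower and 0.705% higher.

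**Figure D4:**
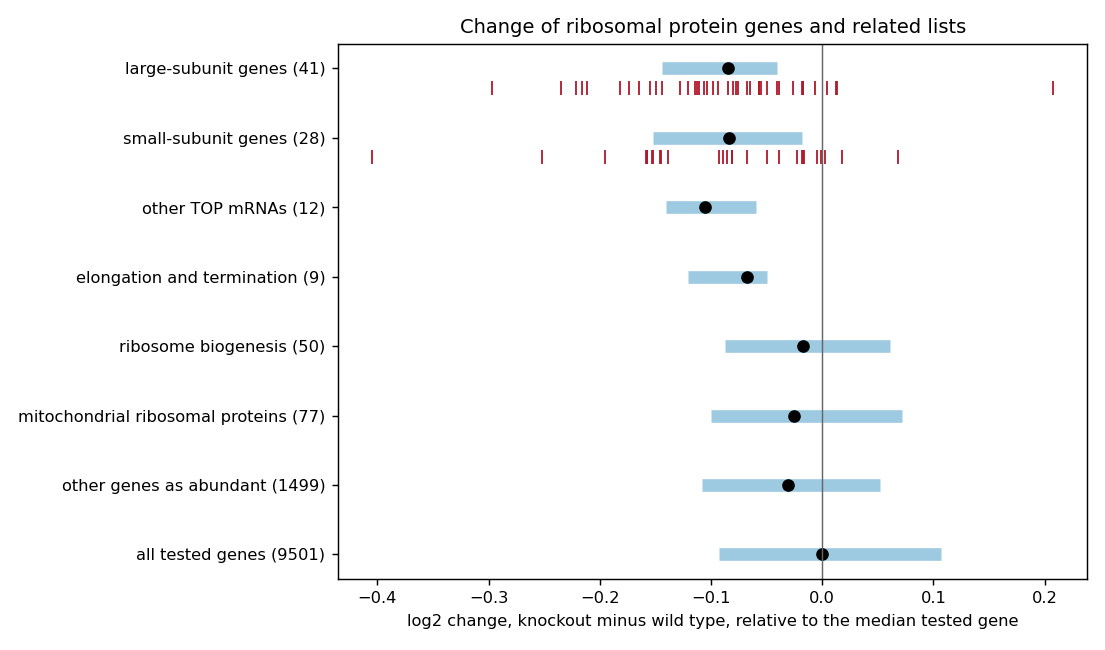
Log2 change, knockout minus wild type, relative to the median tested gene, with the median (dot) and the quartiles (bar) of each list and the number of genes in brackets. Red ticks are the single core genes of each subunit, whose medians of -0.08 lie between those of the other TOP mRNAs (-0.11) and of all tested genes (0).

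Ribosome assembly factors stayed closer to the median gene. Of 51 such genes, 50 were tested, with a median log2 change of -0.02 and 30 below the median gene. Both knockout libraries were lower in 24 of the 50 as deposited, 48.0% beside 35.6% of all tested genes. After scaling they were lower in 11, 22.0% beside 14.1%, and higher in 9 of the 50, beside 15.0%. Wdr43, a factor of the earliest small-subunit precursor, had 11.4 and 11.7 FPKM in wild type against 8.71 and 6.59 FPKM in knockout (log2 change -0.40, SE 0.16, limma unadjusted p = 0.0141). It was the 1 gene of the list under an unadjusted p of 0.05, 2.0% beside 3.52% of all tested genes lower. Gnl3, or nucleostemin, stood at 23.1 and 22.0 FPKM in wild type and, in knockout, at 19.7 and 12.9 FPKM. Nhp2, of the particles that modify ribosomal RNA, was at 26.8 and 26.1 FPKM in the wild-type pair and at 21.7 and 20.6 FPKM in the knockout pair.

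The list of genes that control TOP translation and ribosome synthesis had a median log2 change of 0.05 over 13 genes, 5 of them below the median gene. Both knockout libraries were lower in 5 as deposited, 38.5% beside 35.6% of all tested genes. After scaling they were lower in 1, 7.69% beside 14.1%, and higher in 4, 30.8% beside 15.0%. Eif4ebp1, the mTORC1 substrate that restrains cap-dependent initiation and a known target of the PERK-dependent factor ATF4, had 45.6 and 40.9 FPKM in wild type against 32.2 and 27.2 FPKM in knockout (log2 change -0.39, SE 0.16, limma unadjusted p = 0.0144). Its genotypes did not overlap. It was the 1 gene of the list under an unadjusted p of 0.05, 7.69% of 13 genes beside 3.52% of all tested genes lower. The 3 genes that follow were chosen for their roles after their values were seen. Larp1, which binds the TOP, stood at 28.9 and 28.1 FPKM in wild type and, in knockout, at 28.8 and 24.7 FPKM. Mtor was at 9.89 and 9.56 FPKM in the wild-type pair and at 9.94 and 9.83 FPKM in the knockout pair. Myc, a driver of ribosome synthesis, had 28.6 and 30.1 FPKM in wild type against 23.9 and 27.1 FPKM in knockout.

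The proteins of the mitochondrial ribosome, a separate particle encoded by other nuclear genes, served as a further comparison. Of 78 such genes 77 were tested, with a median log2 change of -0.03 and 44 below the median gene. Both knockout libraries were lower in 27 of 77 as deposited, 35.1% beside 35.6% of all tested genes. After scaling they were lower in 16, 20.8% beside 14.1%, and higher in 10, 13.0% beside 15.0%. At an unadjusted p under 0.05, 4 of them were lower, 5.19% beside 3.52%, and 0 higher, beside 0.705%. Differences between the lists were not tested.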

How the data were processed

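RNA of 4 libraries had been depleted of ribosomal RNA and sequenced after random priming with a stranded kit, per the labels' protocols. The deposited values are FPKM per gene, computed by the authors. HISAT, StringTie, Bowtie2, RSEM and mm10 are named without versions or roles per the submitters' processing notes, and the annotation, the use of strand and the treatment of fragments shared by near-identical genes are not given in the sources used here. The tables hold no counts, so depth is unknown and precision was judged from the 2 libraries per genotype. Genes absent from a table were set to 0. Entrez numbers were matched to RefSeq symbols (GRCm38.p6; 15094 of 15114 matched).

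Genes averaging 1 FPKM or more were compared, knockout minus wild type, on log2(FPKM + 1) with limma 3.58.1 in R 4.3.3 (variance trend, two-sided, no block, Benjamini-Hochberg over 9501 genes, threshold 0.05). The procedure was also run on simulated data with independent noise in each gene. The simulated libraries had no shift common to their genes, unlike the libraries here, so that run does not cover the shift. A fold on the log2(FPKM + 1) scale understates changes of low genes. Members were described by counts and medians, with no test over them. The members, role lists and comparison lists were chosen with earlier results of these data known. Named genes are the members set apart, the role lists, the 3 most and least abundant genes per subunit, the 5 smallest p-values per direction, members listed at 0, and the 3 smallest p-values of other lists, not all of which are described, and the single values of a few genes are not reported here. Copies were found by aligning coding sequences to GENCODE vM21 transcripts. Alternatives covered the scaling, the filter, the pseudocount, the variance model, the block and each library left out. Counts and medians without single libraries, and for genes without copies, were added after seeing the data.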

Additional observations from a re-analysis of the deposited data

How the results depend on the processing

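The p of Rpl3 rests on missing entries set to 0 under every alternative that keeps it, so these do not bear on its call, and it could not be fitted among genes listed in all 4 libraries. Genes called numbered 2 in the comparison as reported and 2 or 3 under the scalings, filters, pseudocount and variance model tried. They numbered 0 among genes listed in all 4 libraries, and 2 to 43 when 1 library was left out, with 43 (4 lower) without wild-type replicate 2. The labels do not say whether the replicate numbers pair the libraries. Same-numbered deviations correlated at 0.0698 over the tested genes, which cannot decide it. The fit with the replicate block called 14 genes, 8 lower. The large-subunit median, -0.08 as reported, was -0.1653 without a filter on low values, -0.1817 over genes without a near-identical copy, and -0.1618 to -0.0233 when 1 library was left out. The small-subunit median was -0.1647 without a filter and -0.0363 over genes without a near-identical copy, and ranged from -0.1745 to -0.0125 when 1 library was left out. Core genes lower in both knockout libraries numbered 45 of 69 as deposited, 15 after median-ratio, 18 after upper-quartile and 18 after Entrez-sum scaling. Of all 9501 tested genes, 3386, 1342, 1418 and 1171 were lower in the same order. With 1 library left out, core genes numbered 45 to 65 as deposited, 65.2% to 94.2%, beside 44.0% to 69.7% of all tested genes. The log2 ratio of large to small subunit, knockout over wild type, was 0.0048, and -0.0263 to 0.036 when 1 library was left out. The sign turned for 3 genes near the median gene: Rpl6 (-0.0676 without a filter, -0.1426 to 0.159 with 1 library left out), Rpl7l1 (-0.0358 and -0.0225 to 0.106) and Rps24 (-0.0784 and -0.0352 to 0.0335). Rps12 had a limma adjusted p of 0.027 when wild-type replicate 2 was left out. Without a filter the fitted change of each gene stayed the same, and the median gene it is set against moved. The causes of the other shifts were not tested. Depth, which the tables do not give, limits the members at a few FPKM.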
